A study of Mus musculus with 6 samples.

Results

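Voltage-gated sodium channel genes were examined in mouse brain: the 4 pore-forming alpha subunit genes Scn1a, Scn2a, Scn3a and Scn8a, which encode Nav1.1, Nav1.2, Nav1.3 and Nav1.6, and the 3 beta subunit genes Scn2b, Scn3b and Scn4b. They were chosen by symbol from the table of normalised counts, and all 7 were found among its 78298 gene identifiers. All 7 also passed the filter on low values, a mean normalised count of at least 10, which left 17391 genes for testing. The 6 libraries were made from left brain of male mice, 3 wild-type and 3 Top2b-low, while the series text speaks of whole brain. Both Top2b alleles of a Top2b-low mouse carried an auxin-inducible degron tag, inserted with CRISPR/Cas9 where the coding sequence begins, and the labels name no compound given to mice of either genotype. The labels give an age of 10 weeks for all 6 libraries, while the series text gives 3.5 months. The name of 1 library of each genotype, replicate 3, begins with N22, and that of the Top2b-low library ends in dNdN where the names of the other 2 end in Homo. What N22 and dNdN stand for is not stated in the labels.

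The alpha subunit forms the whole ion-conducting pore. It opens on depolarisation, lets sodium in to drive the rising phase of the action potential, and then inactivates within milliseconds. Scn1a is the main alpha subunit gene of fast-spiking inhibitory neurons, Scn2a that of immature axons and of excitatory forebrain neurons, and Scn8a that of mature axon initial segments and nodes of Ranvier, while Scn3a is strongest before birth. Beta subunits are single-pass membrane proteins with an immunoglobulin domain that alter channel gating, trafficking and cell adhesion. Beta2 and beta4, from Scn2b and Scn4b, are bound to the alpha subunit by a disulphide bond, while beta3, from Scn3b, is held non-covalently. Topoisomerase IIβ, the product of Top2b, is the type II topoisomerase of postmitotic neurons and is known for its part in the transcription of long genes.

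Replicates 1 to 3 held 3160, 3014 and 2485 normalised counts of Top2b for wild type, against 2152, 2314 and 1965 for Top2b-low. It was thus lower in each library of the Top2b-low label, although it did not pass the test over all genes (limma, log2 fold change −0.42, SE 0.11, Benjamini-Hochberg adjusted p = 0.99997). Top2b was called in 1 of 20 alternatives, DESeq2 with a term for N22 (−0.42, adjusted p = 4.9e-05), a setting added after seeing the data. DESeq2 with the replicate number as a block, also added then, gave Top2b no adjusted p (−0.42, unadjusted p = 1.6e-07), so a call could not be read there. The N22 libraries were deeper, with 28629911 and 35246703 recovered reads against 16963067 to 17413959 in the other 4, and stood apart in tissue content. The summed level of 5 cerebellar granule cell markers was 537 to 719 normalised counts in the N22 libraries and 13114 to 17159 in the others. Markers of neurons, oligodendrocytes, astrocytes and microglia were present in all 6 libraries. Top2b-low replicate 1 stood apart in blood genes, whose sum was 64244 there and 2272 to 17115 elsewhere. Top2b-low replicates 2 and 3 stood apart in 8 hypothalamic peptide genes, whose sum was 110 and 88.7 there and 1149 to 2131 elsewhere. The 7 sodium channel genes took 31691 to 62186 reads in a library, 0.172% to 0.193% of its total.

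The alpha subunit genes were strongly expressed, except for Scn3a, and did not separate the genotypes. In each sentence that follows values are normalised counts, first of wild type and then of Top2b-low replicates 1 to 3. Scn1a counted 6117, 6314 and 4963 in the wild-type libraries against 5368, 6292 and 5138 with Top2b-low. Its lowest values were those of the 2 N22 libraries, and the genotypes overlapped. Scn2a counted 7548, 8457 and 7015 against 7941, 8987 and 7569, and Scn8a 7337, 8497 and 7052 against 8023, 8888 and 7708. For both genes replicate 2 was the highest library of its genotype and replicate 3 the lowest. Scn3a, the alpha subunit gene of the embryonic brain, counted 1080, 1209 and 1232 against 1099, 1102 and 1228, with the 2 N22 libraries the highest.

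Among the beta subunit genes, Scn4b was the steadiest and Scn2b varied most over all 6 libraries. Scn2b counted 8723, 8510 and 6484 in the wild-type libraries against 8605, 7779 and 6659 with Top2b-low. Both N22 libraries were below all others. Scn3b counted 2271, 2390 and 2967 against 2397, 2387 and 2689, with both N22 libraries above all others. Scn4b, the beta subunit linked to resurgent sodium current, counted 5416, 5484 and 5362 against 5775, 5454 and 5799, and neither the genotypes nor the N22 libraries were separate. The coefficient of variation over the 6 libraries was 12.9% for Scn2b, 10.7% for Scn1a, 10.4% for Scn3b, 8.94% for Scn2a, 8.78% for Scn8a, 6.19% for Scn3a and 3.41% for Scn4b. Among the 4 libraries outside N22 it was 5.07% for Scn2b and 2.55% for Scn3b, against 7.40% for Scn1a, 7.60% for Scn2a and 8.15% for Scn8a. There Scn4b, at 5416 to 5775, was not steadier than Scn3b, at 2271 to 2397.

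**Figure D1:**
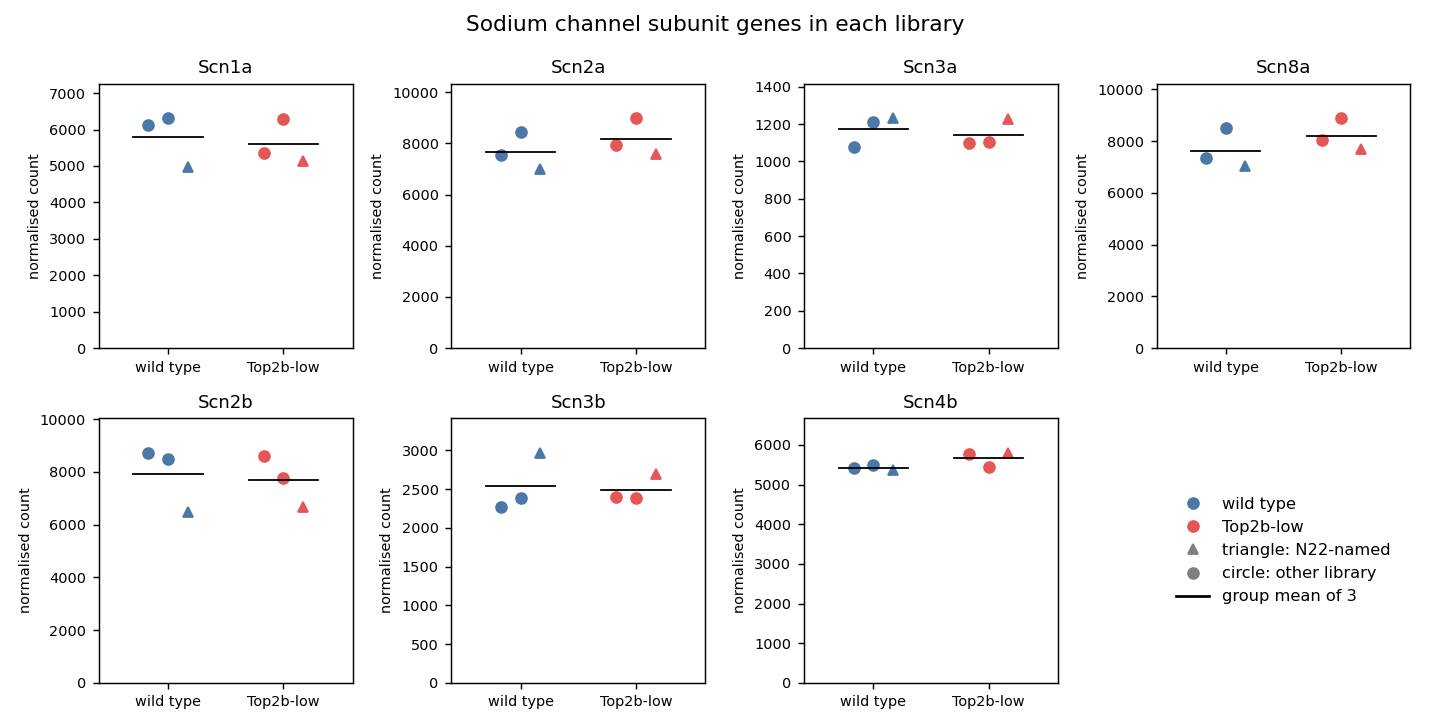
Normalised count (y axis, from 0) of each of the 7 sodium channel genes in the 3 wild-type and 3 Top2b-low libraries (x axis); triangles are the N22-named libraries and bars are group means. The triangles lie below all circles for Scn1a and Scn2b and above them for Scn3a and Scn3b, while the genotypes overlap in every panel.

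Setting the genotypes against each other addressed the effect of lowered Top2b in the adult brain. None of the 7 passed limma's test over all genes, against a background of 0.00% of the 17391 genes tested, and 0 of the 7 had an unadjusted p under 0.05, where 1.51% of all genes did. This fit has no term for N22, so differences between N22 and the other libraries add to its residual spread. With a term for N22, 1011 genes had an unadjusted p under 0.05 in limma, and 1169 with the replicate number as a block. No member did in either setting. The limma intervals and adjusted p below are of the fit without these terms, unless another setting is named. Recovered reads gave 0 calls among the 7 as well, both in edgeR's quasi-likelihood test and in DESeq2. The median log2 fold change of the 7 was −0.02, beside −0.0021 over all genes tested, with 3 genes positive and 4 negative. Scn8a had the largest estimate over all 6 libraries, with a mean of 7629 ± 765 for wild type against 8206 ± 611 for Top2b-low (SD, 3 libraries each), a difference of 7.72% on the log2(normalised count + 1) scale with a 95% interval from −7.85% to 25.9%. Its log2 fold change of 0.11 was 0.048 without Top2b-low replicate 2, 0.053 without wild type replicate 3 and 0.19 without wild type replicate 2. Scn2a stood at 6.45% (−9.41% to 25.1%), or 0.09 on the log2 scale, and at 0.019, 0.028 and 0.16 without the same libraries. Without Top2b-low replicate 2, the estimate for Scn1a (−0.13) was larger than that for Scn8a. Scn2a was 0.14 without Top2b-low replicate 3. Scn4b stood at 4.68% (−5.76% to 16.3%). The estimates of the other 4 were −3.26% for Scn1a (−20.4% to 17.5%), −2.57% for Scn3a (−15.9% to 12.9%), −2.53% for Scn2b (−22.5% to 22.6%) and −1.51% for Scn3b (−18.3% to 18.8%). All 7 intervals span 0, and all had an adjusted p of 0.99997 in limma. These fits do not use the replicate numbers of the titles, by which Scn2a and Scn8a were higher in Top2b-low in 3 of 3 pairs. That count depends on the pairing, since for both genes wild type replicate 2 was above Top2b-low replicate 1. Over the tested genes wild type replicate 1 correlated as well with Top2b-low replicate 2 (0.37) as with replicate 1 (0.33). The share of all genes higher in every pair was not computed. With the replicate number as a block limma gave Scn2a and Scn8a unadjusted p of 0.0875 and 0.0516, and adjusted p of 0.796 and 0.747. These values rest on the same pairing. For no member were the genotypes separate, while they were for 5.74% of all genes tested. An exact permutation test of each gene over its 6 libraries, two-sided, cannot go below p = 0.1, and gave 0.2 for Scn4b, 0.4 for Scn2a and Scn8a and 0.9 for the other 4.

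The alpha subunit genes are long and the beta subunit genes short, which bears on a topoisomerase known for long genes. In the GENCODE M21 annotation the alpha genes span 176 kb (Scn8a), 170.1 kb (Scn1a), 146.7 kb (Scn2a) and 110.5 kb (Scn3a), and the beta genes 22.4 kb (Scn3b), 15.8 kb (Scn4b) and 12.3 kb (Scn2b). The median log2 fold change between genotypes was 0.03 over the 4 alpha genes and −0.02 over the 3 beta genes. It was 0.02 over the 2377 tested genes that span more than 100 kb and −0.0073 over the 14138 shorter ones.

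Within the N22 pair and within the other 4 libraries the genotype estimates differed in sign for 3 of the 7 genes. In the 4 libraries outside N22 the Top2b-low mean differed from that of wild type by −6.20% for Scn1a, −4.93% for Scn2b and 2.63% for Scn3b, while the unreplicated N22 pair gave 3.53%, 2.70% and −9.35%. For Scn2a the values were 5.77% and 7.90%, for Scn8a 6.79% and 9.30%, for Scn4b 3.02% and 8.16%, and for Scn3a −3.85% and −0.29%. The difference between these 2 genotype effects was tested as an interaction in limma. None of the 7 passed, against 0.0230% of all genes, and 0 of 7 had an unadjusted p under 0.05 in limma. EdgeR and DESeq2 also called 0 of the 7. The interaction rests on 2 residual degrees of freedom, all from the libraries outside N22.

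**Figure D2:**
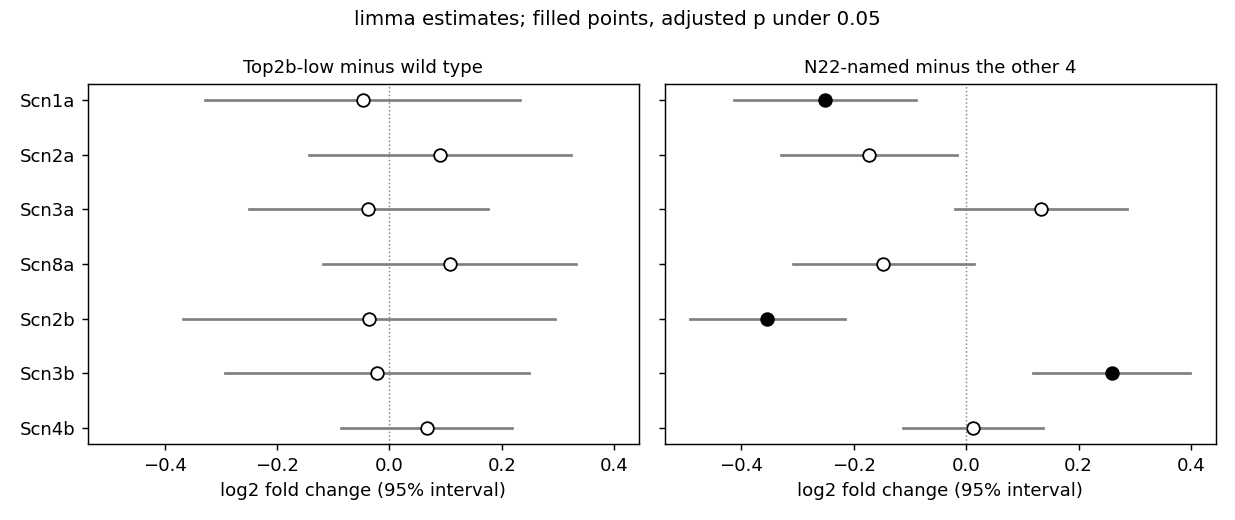
limma log2 fold change (x axis) with its 95% interval for the 7 sodium channel genes, on the left for Top2b-low minus wild type and on the right for N22-named minus the other 4 libraries; filled points have an adjusted p under 0.05. Every interval on the left spans 0, and on the right Scn1a and Scn2b are filled below 0 and Scn3b above it.

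On the scale of normalised counts per kilobase of merged exons, which allows genes to be set side by side, the beta subunit genes Scn2b and Scn4b were the most abundant of the 7. Scn2b stood at 1674 ± 216 per kilobase (SD, n = 6) and Scn4b at 1114 ± 38.0. Scn2a followed with 622 ± 55.6, Scn1a with 511 ± 54.9, Scn8a with 502 ± 44.1 and Scn3b with 461 ± 47.8, and Scn3a was lowest at 93.0 ± 5.76. The lowest library of Scn2b was above the highest of Scn4b, and so was Scn4b above Scn2a and Scn3b above Scn3a. Between Scn2a, Scn1a, Scn8a and Scn3b the neighbours' ranges overlapped, so that their order is not settled, although Scn2a was above Scn1a in all 6 libraries. Per kilobase of the longest protein-coding transcript, a length chosen after seeing the data, Scn8a stood above Scn1a (692 against 680) and the rest of the order held. Summed per kilobase, the 4 alpha genes reached 1542 to 1923 and the 3 beta genes 3012 to 3446 in a library.

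**Figure D3:**
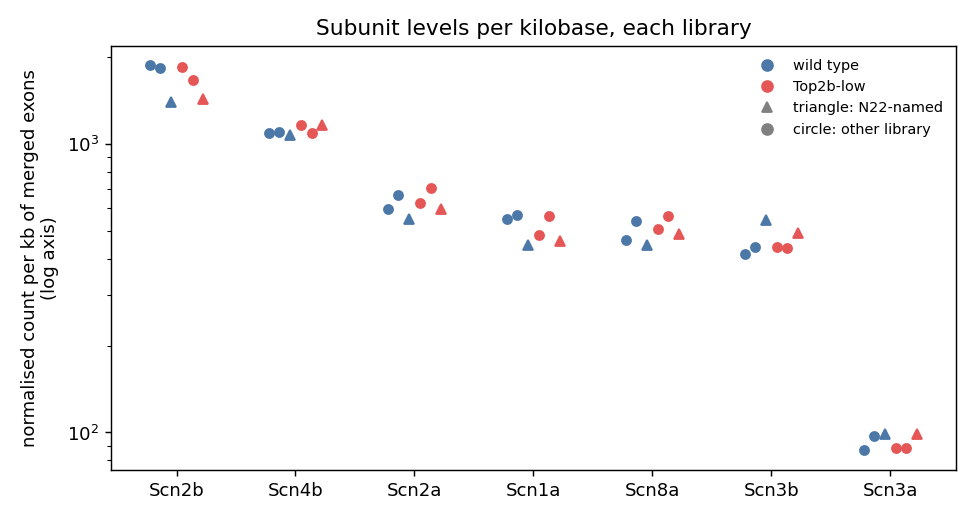
Normalised count per kilobase of merged exons (y axis, log scale) of the 7 genes in each of the 6 libraries, ordered by mean; colours give the genotype and triangles the N22-named libraries. Scn2a, Scn1a, Scn8a and Scn3b share a band between 416 and 706, with Scn3a near 93.0.

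In the annotation Scn3a and Scn2a are next to each other on chromosome 2, on opposite strands, and Scn1a lies on the same chromosome beside Scn9a, which Scn7a follows. Scn2b and Scn4b are neighbours on chromosome 9 on the same strand, with Scn3b elsewhere on that chromosome, and Scn8a is on chromosome 15. Neighbours had different patterns over the libraries: Scn2b was lower in both N22 libraries than in all others and Scn4b was not, and Scn3a was higher in both and Scn2a was not.

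The bases before the transcription start are shown for 4 of these genes, because Scn1a and Scn2b were the members found lower in the N22 libraries in the comparison that follows, while Scn4b, the neighbour of Scn2b, and Scn8a were not called. The RefSeq promoter table (GRCm38.p6, while the counts are of mm39) matched Scn1a, Scn2a, Scn8a, Scn2b and Scn4b, 5 of the 7. Each window holds the 250 bases before an annotated start, 5′ to 3′ on the gene's strand, with CG dinucleotides in capitals. The windows are chr2:66440838-66441087 (minus strand) for Scn1a, chr9:45117626-45117875 (plus) for Scn2b, chr9:45138374-45138623 (plus) for Scn4b and chr15:100870395-100870644 (plus) for the upstream start of Scn8a.
Scn1a: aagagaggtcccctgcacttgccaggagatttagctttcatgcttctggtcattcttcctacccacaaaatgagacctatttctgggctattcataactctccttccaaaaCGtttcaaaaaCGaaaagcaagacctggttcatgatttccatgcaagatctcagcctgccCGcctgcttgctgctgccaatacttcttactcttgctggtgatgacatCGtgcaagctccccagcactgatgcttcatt
Scn2b: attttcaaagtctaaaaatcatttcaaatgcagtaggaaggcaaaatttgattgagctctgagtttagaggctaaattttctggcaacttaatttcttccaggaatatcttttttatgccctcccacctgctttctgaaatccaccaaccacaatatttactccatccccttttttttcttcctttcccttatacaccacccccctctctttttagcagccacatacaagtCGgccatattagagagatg
Scn4b: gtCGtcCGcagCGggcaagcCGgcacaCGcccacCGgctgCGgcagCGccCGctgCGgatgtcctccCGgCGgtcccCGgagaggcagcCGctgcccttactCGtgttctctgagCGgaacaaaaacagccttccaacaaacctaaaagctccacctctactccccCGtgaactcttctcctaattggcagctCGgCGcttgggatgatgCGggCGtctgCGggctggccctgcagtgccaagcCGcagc
Scn8a: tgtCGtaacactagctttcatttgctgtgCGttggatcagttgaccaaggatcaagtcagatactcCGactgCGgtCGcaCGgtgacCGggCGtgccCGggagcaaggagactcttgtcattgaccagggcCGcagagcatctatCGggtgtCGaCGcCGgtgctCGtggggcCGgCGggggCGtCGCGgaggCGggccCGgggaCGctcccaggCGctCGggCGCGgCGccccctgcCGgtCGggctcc
The Scn2b window held 1 CG dinucleotide and 38.4% G and C, and that of Scn1a 4 and 46.8%. The Scn4b window held 23 and 66.0%, and that of Scn8a 30 and 68.0%. Over 32851 windows of the same length the median was 6 CG dinucleotides and 52.4% G and C. Of all windows 7.87% held fewer CG dinucleotides than that of Scn2b, 37.8% fewer than that of Scn1a, 86.7% fewer than that of Scn4b and 94.1% fewer than that of Scn8a. The 2 Scn2a windows held 2 and 9, and a second Scn8a window 9. The letters TATAAA, searched on both strands, were in 1 of the 7 windows of these genes, that of the downstream Scn2a start, and in 12.4% of all windows. The letters GGGCGG, also on both strands, were in 0 of the 7 and in 32.7% of all. These are counts of letters in the windows and no measure of binding or activity.

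The libraries named N22 differed from the other 4 in 3 of the 7 genes. Scn2b, which encodes the disulphide-linked beta2 subunit, and Scn1a, which encodes Nav1.1, were lower there, and Scn3b, which encodes beta3, was higher. With genotype in the model limma called 2 of the 7 genes lower, where 16.7% of all genes tested were, and 1 of the 7 higher, where 11.3% were. In either direction that is 3 of 7 against 28.0% of all genes, so the share of members called cannot be read as particular to them. The median over the 7 was −0.15 on the log2 scale, beside −0.0046 over all genes.

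Scn2b averaged 6571 normalised counts in the 2 N22 libraries and 8404 ± 425.9 in the other 4 (SD, n = 4). The difference was −21.7%, with a 95% interval from −28.9% to −13.9% (log2 fold change −0.35, SE 0.06, limma adjusted p = 0.00284). Against the mean of the other 2 libraries of its genotype, the N22 library stood at −24.8% for wild type and −18.7% for Top2b-low. Scn1a averaged 5050 against 6023 ± 445.5, a difference of −16.0% (−24.9% to −6.02%, log2 fold change −0.25, SE 0.07, adjusted p = 0.0277). The same values within a genotype were −20.2% and −11.9%. Scn3b averaged 2828 against 2361 ± 60.1, 19.6% higher (8.57% to 31.9%, log2 fold change 0.26, SE 0.06, adjusted p = 0.0133), with 27.3% and 12.4% within the genotypes. For these 3 genes both N22 libraries lay outside the range of the other 4, so the direction had to be the same in both genotypes.

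The other 4 members did not pass. Scn2a averaged 7292 against 8233 (log2 fold change −0.17, adjusted p = 0.0930) and Scn8a 7380 against 8186 (−0.15, 0.156), both with overlapping libraries. Scn3a, at 1230 against 1123, was above all others in both N22 libraries, yet had an adjusted p of 0.178 (limma, 0.13). Scn4b averaged 5580 and 5532, a difference of 0.82% with an interval from −7.50% to 9.89%. The N22 libraries lay outside the range of the other 4 for Scn1a, Scn2b, Scn3a and Scn3b, 4 of the 7, while 49.3% of all genes tested did so. For 2 of the 7 they were lower, as for 26.5% of all genes, and for 2 higher, as for 22.8%.

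Of the 3 calls, that of Scn1a was the least steady: it held under 7 of 15 alternatives, with adjusted p from 0.00518 to 0.299, and leaving out any library but Top2b-low replicate 1 ended it. The calls of Scn2b and Scn3b each held under 13 of 15, and ended without the intensity trend (adjusted p = 0.0505 and 0.0831) and without wild type replicate 3 (0.0608 and 0.231), where the log2 fold change of Scn3b was 0.17.

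Markers of other cell types moved with the N22 names beside these genes. All 5 granule cell markers and all 5 Purkinje cell markers were lower in both N22 libraries than in the other 4, and the granule cell gene Gabra6 was at or under 0.711 in both. The Purkinje sum was 14176 to 17233 against 33603 to 41704. The median log2 fold change of the 5 Purkinje markers was −4.85 (range −6.45 to −0.91), further below 0 than the sum shows. Of the genes listed for fast-spiking interneurons 3 of 4, Pvalb, Syt2 and Kcnc1, were lower (sum of the list 9691 to 9838 against 16082 to 16883). Kcnc2 was above the other 4 libraries in both. The list thus went both ways, and bulk values do not show which cells its RNA came from. Of the astrocyte markers 3 of 4 were lower (16094 to 16470 against 22482 to 23852), and 4 of 6 striatal markers were higher (12599 to 13848 against 9910 to 11544). Of the oligodendrocyte markers 3 of 5 were lower (104901 to 111063 against 113253 to 124725), as were 2 of 3 hindbrain glycinergic neuron markers (2335 to 2853 against 3210 to 4166) and 2 of 3 blood genes. The sum of 5 general neuron markers was 89025 to 99153 against 86113 to 89281. No marker of these lists was at 0 in any library. In bulk tissue fewer cells of a type and less RNA per cell cannot be told apart, and the depth of the N22 libraries moves with their names too. The part of tissue content or depth in the sodium channel values was not tested.

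Ratios of subunits within a library, which do not depend on its scaling, separated steady from shifting pairs. Scn8a and Scn2a kept nearly the same ratio in all 6 libraries: it was 0.972, 1.00 and 1.01 in the wild-type libraries against 1.01, 0.989 and 1.02 with Top2b-low. Scn3b against Scn2b was 0.260, 0.281 and 0.458 in the wild-type libraries against 0.279, 0.307 and 0.404 with Top2b-low, with both N22 libraries above all others. Scn4b against Scn2b was 0.827 and 0.871 in the N22 libraries and 0.621 to 0.701 in the other 4, and Scn3a against Scn2a was 0.176 and 0.162 there and 0.123 to 0.143 elsewhere. For each of these 3 ratios the N22 libraries did not overlap the others. For Scn3b/Scn2b this had to be so, since both genes lay apart in N22 in opposite directions. The two-sided exact permutation test gave p = 0.133 for these 3, the smallest that 2 against 4 allows. It gave 0.667 for Scn1a/Scn2a and 0.267 for Scn8a/Scn2a. The ratio test was planned for genotype only, and the share of other gene pairs that separate N22 was not computed.

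Scn1a against Scn2a was the ratio by which the genotypes did not overlap. It was 0.810, 0.747 and 0.707 in the wild-type libraries against 0.676, 0.700 and 0.679 with Top2b-low, so the lowest wild-type library was above the highest Top2b-low one by a small margin. The means were 0.755 ± 0.0520 and 0.685 ± 0.0132 (SD, n = 3 each), with a two-sided exact permutation p = 0.1, the smallest that 3 against 3 allows, and 0.5 after Benjamini-Hochberg adjustment over the 5 ratios. The other 4 ratios had p from 0.4 to 1 and adjusted p from 0.625 to 1 in the same exact test. No ratio passed the test between genotypes, which 3 against 3 could not allow.

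**Figure D4:**
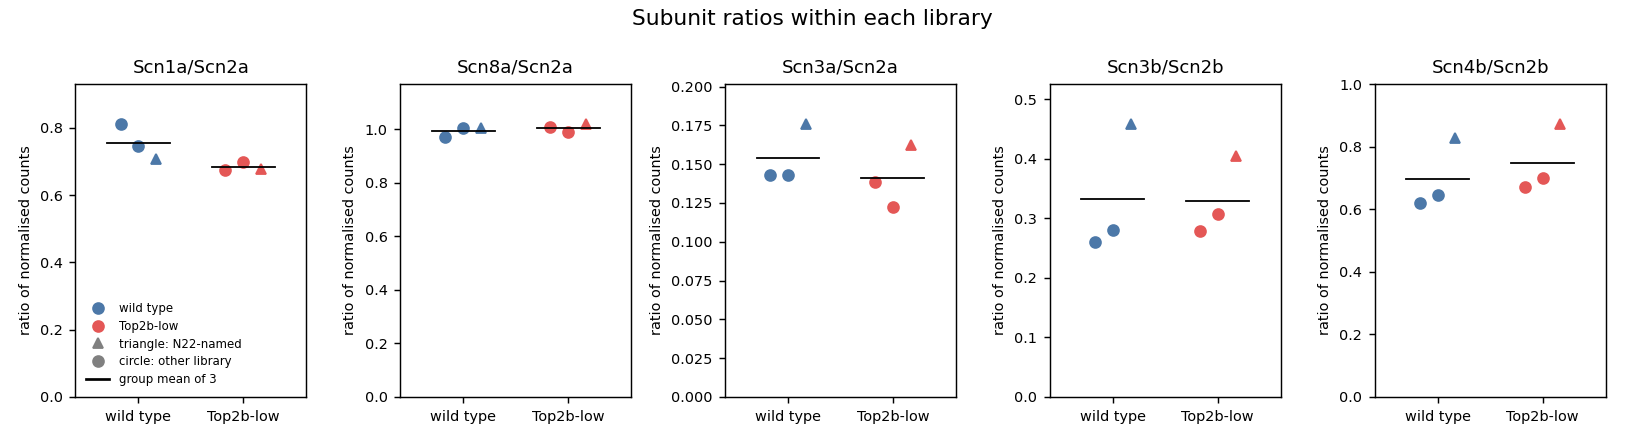
Ratio of normalised counts of 2 subunit genes within a library (y axis, from 0) for 5 pairs, by genotype (x axis); triangles are N22-named libraries and bars are means of 3. Scn8a/Scn2a stays between 0.972 and 1.02, Scn3b/Scn2b is highest in both N22 libraries, and for Scn1a/Scn2a the genotypes do not overlap.

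Of the family's other genes, 5 are given here, all at low levels. Scn7a, which encodes the sodium-sensing channel Nax, counted 108 to 137. Scn4a of skeletal muscle, and Scn10a and Scn11a of sensory neurons, averaged under 10 and were not tested. Their highest values were 5.69, 13.5 and 8.77, and Scn4a was at 0 in wild type replicate 1, where 3 reads equal 3.64 normalised counts.

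Scn9a, which encodes Nav1.7 and is best known from sensory neurons, was at its lowest in 2 of the Top2b-low libraries. It counted 174, 165 and 159 in the wild-type libraries against 130, 89.8 and 68.0 with Top2b-low. Its genotypes did not overlap (165.9 ± 7.56 against 96.1 ± 31.7, SD, 3 libraries each), as was so for 5.74% of all genes tested. Its log2 fold change was −0.83 (SE 0.23, limma unadjusted p = 0.00812), where 1.51% of all genes had an unadjusted p under 0.05. It was not called once adjusted over all genes tested (limma adjusted p = 0.99997). The same 2 libraries, Top2b-low replicates 2 and 3, held little RNA of the 8 hypothalamic peptide genes, a list added after the values were seen. Pmch counted 395, 555 and 612 in the wild-type libraries against 400, 37.6 and 1.18 with Top2b-low, and Hcrt 124, 154 and 159 against 96.0, 9.71 and 0.592. The part of hypothalamic content in the Scn9a values was not tested. An antisense RNA that overlaps Scn9a, Gm13629, averaged 255 normalised counts, 195% of the mean of Scn9a, and the sources used here do not say whether counting used strand, so reads of the 2 genes may not be told apart. Gm13629 counted 288, 272 and 262 in the wild-type libraries against 249, 202 and 260 with Top2b-low. Its genotypes did not overlap either, by a small margin, 261.7 in wild type replicate 3 against 260.3 in Top2b-low replicate 3. The lowest library of Gm13629 was Top2b-low replicate 2 and that of Scn9a Top2b-low replicate 3.

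Genes whose products bind or place sodium channels were called between N22 and the other libraries, and none was called between genotypes. The fibroblast growth factor homologous factors are cytoplasmic proteins that bind the alpha subunit's C-terminus and alter inactivation. All 4 passed limma's test between N22 and the other libraries. Fgf14 was lower in N22 (1165 ± 84.3 in the other 4, SD, against a mean of 841, log2 fold change −0.47, SE 0.08, adjusted p = 0.00238), as were Fgf11 (−0.43) and Fgf12 (−0.20). Fgf13 was higher (1781 ± 172 against 2219, log2 fold change 0.32, SE 0.07, adjusted p = 0.00872). The Fgf12 call held under 6 of 15 alternatives and that of Fgf14 under all 15. Without Top2b-low replicate 3 the calls of Fgf11 (adjusted p = 0.0518) and Fgf13 (0.0508) ended, and so they did without wild type replicate 3 (0.0604 and 0.135). Fgf12 had 0.360 there, with a log2 fold change of −0.13. Between genotypes none of the 4 passed, and their median was −0.0019.

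The scaffold of the axon initial segment and of the nodes of Ranvier anchors the channels. Of 11 such genes 5 were lower in N22, 1 was higher and 5 did not pass, with a median of −0.13. Ank3, the gene of ankyrin-G, which tethers sodium channels to spectrin, counted 9708, 11565 and 8104 in the wild-type libraries against 11015, 11862 and 8305 with Top2b-low, a log2 fold change of −0.42 for N22 (SE 0.08, adjusted p = 0.00298). Ank2 (−0.35), Nfasc (neurofascin, −0.27) and the contactin gene Cntn1 (−0.26) were lower too. The fifth was Cntnap1, a paranodal protein gene (−0.24), and the gene higher was Trim46, which organises microtubules of the initial segment (0.23). These 2 fall outside the rule for named genes, are given to complete the count, and were not recomputed under the alternatives. Without Top2b-low replicate 3 the limma calls of Ank3 (adjusted p = 0.0578), Ank2 (0.0583), Cntn1 (0.0683) and Nfasc (0.206) ended, with Nfasc at −0.18, and that of Cntn1 also ended without wild type replicate 3 (0.0621). Between genotypes 0 of the 11 passed limma's test, with a median of 0.08 and 10 of 11 estimates above 0, the highest 0.12. The median was −0.0021 over all genes tested and 0.02 over those that span more than 100 kb. All estimates come from the same 6 libraries, so the signs are not independent. The share of positive estimates over all genes was not computed. Estimates above 0 were also 8 of 9 among the channel regulators and 3 of 4 in the sodium leak channel complex, both given below. They were 2 of 4 among the fibroblast growth factor homologous factors and 3 of 7 among the members.

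Of the sodium leak channel complex, which sets resting sodium permeability, Unc80 was lower in N22 (−0.32, adjusted p = 0.00359) and Fam155a higher (0.26, adjusted p = 0.009996, limma), while Nalcn (−0.18, 0.0737) and Unc79 (0.03, 0.775) did not pass. Of 9 genes listed as channel regulators 1 was called, Adam10, a membrane protease gene (−0.28, limma adjusted p = 0.00751). Without Top2b-low replicate 3 limma no longer called Unc80 (adjusted p = 0.0535) or Fam155a (0.127), and without wild type replicate 3 neither Fam155a (0.0717) nor Adam10 (0.135). Rbfox2, a splicing factor gene, had −0.16 (0.0550), the beta-secretase gene Bace1, whose product cuts beta subunits, −0.17 (0.0630), and Rest, the gene of a repressor that binds Scn2a, −0.47 (0.0953). Between genotypes 0 of these 13 genes passed, with medians of 0.03 and 0.05. Calls in these lists too stand beside 28.0% of all genes called for N22, and the marker values given above, oligodendrocytes included, move with them; their part was not tested.

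**Figure D5:**
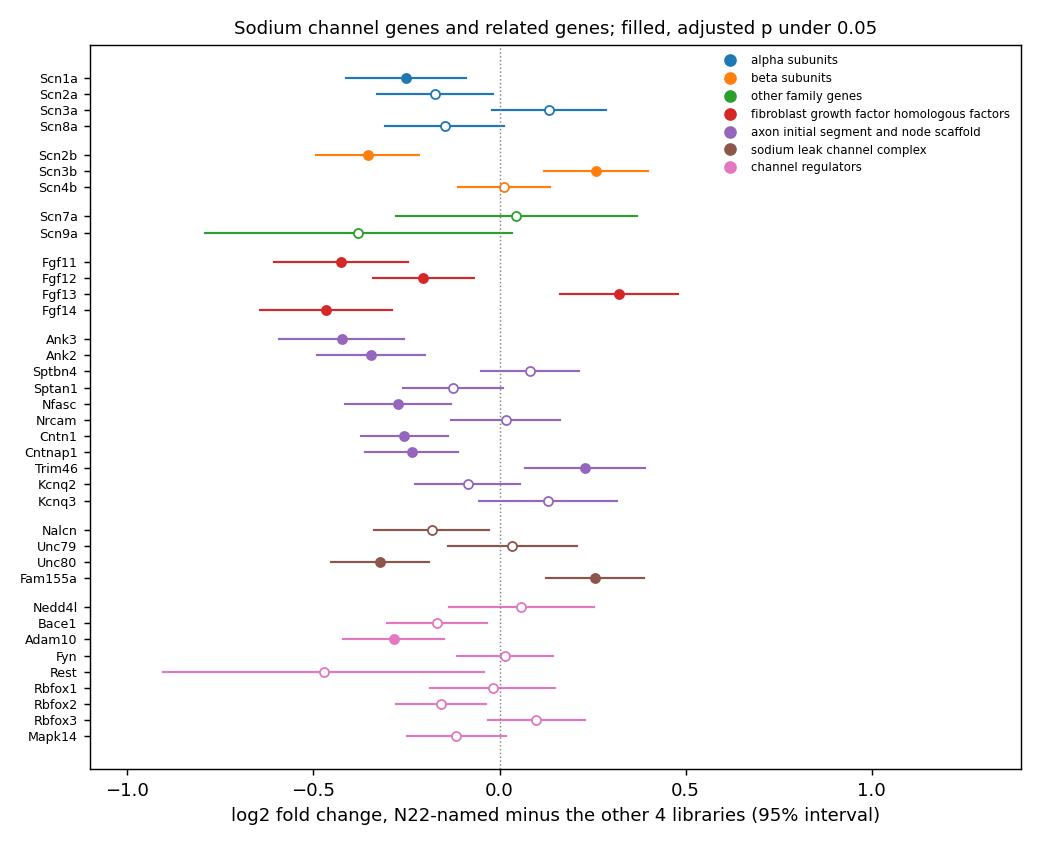
limma log2 fold change of N22-named minus the other 4 libraries (x axis) with its 95% interval for sodium channel genes and genes of related lists (y axis, coloured by list); filled points have an adjusted p under 0.05. Scn2b stands near Ank2, Unc80 and Fgf11 below 0, and Scn3b near Fgf13 and Fam155a above 0.

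For each member the 2 genes with the nearest profile over the 6 libraries were found, by the root mean square difference of log2 values after centring each gene on its own mean, among 11529 candidates with a mean of at least 100. Scn2a was nearest to Akap9, a gene of a kinase anchoring protein (0.017), and Ncor1 (0.019), and Scn8a to Kcnma1, the BK potassium channel gene (0.020), and Serac1 (0.022). Scn1a was nearest to the ubiquitin ligase gene Itch (0.020) and the heat shock factor gene Hsf2 (0.021), and Scn3a to Pes1 (0.022) and the corepressor gene Tle1 (0.025). For the beta subunit genes they were Agps, an enzyme of ether lipid synthesis (0.017), and Zfp597 (0.022) for Scn2b, the vesicle sorting gene Vps16 (0.025) and the chloride channel gene Clcn2 (0.026) for Scn3b, and the adaptor subunit gene Ap3b1 (0.0086) and Smim7 (0.017) for Scn4b. These differences are below the SD of each member's own log2 values, 0.05 for Scn4b to 0.19 for Scn2b. Taking the 2 nearest of 11529 candidates over 6 libraries yields low differences by selection, and no background for other genes was computed. The 6 libraries share the split by N22 names and depth.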

How the data were processed

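RNA of 3 wild-type and 3 Top2b-low brains was sequenced, with polyadenylated RNA selected and stranded libraries built, per the labels' protocols. Normalised counts for each gene were deposited by the authors in 1 table, whose unit is a signal. Per the submitters' processing notes RSEM and mm39 were used; the sources used here do not give its version, the aligner, the annotation or the use of strand. Every value was a whole multiple of the smallest value above 0 of its library (100.0% of values, tolerance 1e-06 reads), so whole reads were recovered. They came to 16963067 to 35246703 per library. The factors divided out, 0.798 to 1.69, equalled the median-ratio size factors. Symbols and lengths came from GENCODE M21 (GRCm38), with 51498 identifiers matched, so no coordinates of it are given. Some genes of the family are not reported here.

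Tests used limma 3.58.1 (R 4.3.3) on log2(normalised count + 1), the pseudocount being 1, with an intensity trend, two-sided, and Benjamini-Hochberg adjustment over 17391 genes with a mean of at least 10, at a threshold of 0.05. This scale understates changes of low genes. The genotype fit had no covariate, the N22 fit had genotype as one, and the interaction had both terms. EdgeR 4.0.16 (quasi-likelihood) and DESeq2 1.42.0 on recovered reads were alternatives. The limma fits of genotype and N22 were also run on simulated counts, with the outcome not given here. The interaction, edgeR and DESeq2 fits were not.

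The members and lists were chosen with earlier results of these data known. Members were always named; of each related list up to 4 genes with the smallest unadjusted p in the N22 fit were. Replicate numbers are shared by the genotypes in the titles. Deviations from the group means of same-numbered libraries correlated at 0.33, 0.35 and 0.68 over the tested genes. By the rule (each above 0.1) they could be taken as paired, which was done in the replicate block alternatives only. The main genotype fit and the exact tests do not use the pairing. The pairing rests on these values alone, and wild type replicate 1 correlated as well with Top2b-low replicate 2 (0.37). Libraries of a group differed beyond sampling noise (chi-square per degree of freedom 4.17 to 39.3). The series text gives 3 mice per genotype, and replicates were taken as separate animals on that basis.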

Additional observations from a re-analysis of the deposited data

How the results depend on the processing

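Between genotypes no member was called under any of the 20 alternatives run. The replicate block changed no call of a member: Scn8a had an adjusted p of 0.747 with it, Scn2a 0.796, and 0 of 17391 genes passed. The count over all genes was 14 with DESeq2 and a term for N22, 11 with DESeq2 and the replicate block (both added after seeing the data), and 0 to 1 when single replicates were left out. DESeq2 with the replicate block gave Top2b, Scn3a, Scn3b, Scn7a and Scn9a no adjusted p. Of the member estimates Scn3b turned to 0.038 in the 4 libraries outside N22. Leaving out single replicates, which unbalances N22, gave −0.16 to 0.018 for Scn1a, −0.17 to 0.062 for Scn2b and −0.10 to 0.094 for Scn3b. The log2 ratio difference was −0.14 to 0.27 for Scn3b/Scn2b and −0.012 to 0.23 for Scn4b/Scn2b.

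For N22, 4864 genes were called (1963 higher, 2901 lower), 2181 without the intensity trend and 1711 to 4576 without single replicates; without either replicate 3 the lone N22 library is assumed to vary like the others. With quantile normalization the split was 2438 higher and 2377 lower. Scn1a was not called with no filter (−0.25, adjusted p = 0.0813), without the trend (−0.25, 0.134) or with quantile normalization (−0.18, 0.0662), nor were Scn2b (−0.35) and Scn3b (0.26) without the trend. Left-out replicates gave −0.32 to −0.18 for Scn1a, −0.41 to −0.30 for Scn2b, 0.17 to 0.35 for Scn3b, −0.21 to −0.14 for Scn2a (called without Top2b-low replicate 1), −0.024 to 0.047 for Scn4b, −0.035 to 0.11 for Scn7a and −0.017 to 0.089 for Unc79. For the interaction limma called 4 genes, 2 with a pseudocount of 5, 9 with a mean of at least 50, 1 with edgeR and 23 with DESeq2 (added later), no member among them. The cause of these shifts was not tested. Depth limits the untested Scn4a, Scn10a and Scn11a.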
